A study of Mus musculus with 12 samples.

Results

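The genes described here mark the main cell types of the cerebellar cortex. They are 8 listed genes out of 41388 in the deposited tables: Gabra6, Cbln1, Cbln3, Neurod1, Fat2 and Zic1 for granule neurons, Pcp2 for Purkinje neurons, and Gdf10 for Bergmann glia. They were taken by gene symbol, and each symbol matched 1 Ensembl gene. Gabra6 and Gdf10 were selected on their rise in CPM in the astrocyte fraction over flowthrough, so their values in that comparison are given as a description without a test.

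In the cerebellar cortex, granule neurons send parallel fibres onto the dendrites of Purkinje neurons, the only output cells of that cortex. Cerebellin 1, released from granule neurons, bridges the membranes on both sides of this synapse and holds it together. Bergmann glia are radial astrocytes whose processes wrap the same synapses.

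The libraries came from the brains of 8 mice on a C57BL/6 background that carried floxed Bmal1 alleles (Bmal fl/fl; official symbol Arntl, a transcription factor of the circadian clock). Animals that were Cre+ for ALDH1L1-CreERT2, a tamoxifen-activated recombinase under control of an astrocyte gene, are the astrocyte knockouts (aKO), and Cre- animals are the wild type (WT). Both genotypes received tamoxifen by gavage, 2 mg daily over 5 days when they were 2 months old, and the brains were taken at 7 months. Cells from dissociated brains that magnetic beads against the astrocyte surface antigen ACSA-2 held back are called astrocytes here, and all other cells are called flowthrough. Astrocyte libraries came from WT animals 201, 202 and 265 and aKO animals 203, 205, 208, 221 and 222, and flowthrough libraries from WT 201 and 202 and aKO 203 and 205. Every flowthrough title also carries the letter b, which the labels do not explain, so what it may mark and the fraction cannot be told apart. The labels name the tissue only as brain and do not say whether the cerebellum was dissected with it or in what share.

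Astrocyte libraries held 21816637 to 62655238 counts and flowthrough libraries 33019572 to 53868165. Levels are given in CPM, the count scaled to the total of its library, and 3 counts correspond to 0.0479 to 0.138 CPM, depending on the library. This floor covers counting error only. Genes of the mitochondrial genome took 11.1% to 36.5% of the counts in astrocytes and 4.81% to 12.9% in flowthrough. Arntl, the targeted gene, had 2.13 to 6.80 CPM in the WT astrocyte libraries and 5.05 to 25.0 CPM in those labelled aKO. That count covers all annotated exons, not the floxed part alone, so it does not check the deletion. The 202 astrocyte library is WT by its title and knockout by its genotype field. WT was used, in accord with the flowthrough library of that number and the group sizes of the design. Over all genes tested, 17.0% changed between the fractions and 8.52% were higher in astrocytes. Of 12 general astrocyte markers, 10 rose in the astrocyte fraction (median log2 fold change 2.75), and all 8 microglial markers fell (median -4.24). Of 8 oligodendrocyte markers 6 rose (median 1.85), with sums of 3229 to 21510 CPM in astrocytes and 832 to 6300 CPM in flowthrough. Ttr, a choroid plexus gene, took 1.20% to 17.0% of the counts in astrocytes and 8.17% to 32.1% in flowthrough. The part of these shifts in the levels below was not tested.

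The stretch of DNA before the start of a gene is shown for 4 genes: Gabra6 and Cbln3, whose levels moved together between animals, Gdf10, which moved with neither, and Zic1, the 1 listed gene whose window holds CACGTG, the E-box that BMAL1 binds together with CLOCK. Sequences are from RefSeq in GRCm38.p6, read 5′ to 3′ on the strand of the gene. Capitals mark the motifs searched, CACGTG and the broader E-box form CANNTG, each of which reads the same on both strands, and every CACGTG is also a CANNTG. Bases that are part of an annotated exon were trimmed from Cbln3 and Zic1. The windows lie at chr11:42321073-42321322 (minus strand, 250 bases) for Gabra6, chr14:55884393-55884506 (minus strand, 114 bases) for Cbln3, chr14:33923337-33923586 (plus strand, 250 bases) for Gdf10, and chr9:91365811-91366018 (minus strand, 208 bases) for Zic1.
Gabra6: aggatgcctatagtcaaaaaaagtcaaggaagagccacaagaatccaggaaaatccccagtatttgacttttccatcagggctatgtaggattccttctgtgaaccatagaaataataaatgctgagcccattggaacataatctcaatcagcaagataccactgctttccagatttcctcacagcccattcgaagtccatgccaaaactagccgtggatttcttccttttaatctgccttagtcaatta
Cbln3: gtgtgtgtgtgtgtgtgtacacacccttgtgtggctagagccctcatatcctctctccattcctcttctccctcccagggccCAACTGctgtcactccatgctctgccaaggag
Gdf10: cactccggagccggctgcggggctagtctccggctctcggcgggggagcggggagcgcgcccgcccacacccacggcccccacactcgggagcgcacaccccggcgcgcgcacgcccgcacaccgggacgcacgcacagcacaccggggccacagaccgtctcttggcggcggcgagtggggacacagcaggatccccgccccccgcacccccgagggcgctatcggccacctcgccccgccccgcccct
Zic1: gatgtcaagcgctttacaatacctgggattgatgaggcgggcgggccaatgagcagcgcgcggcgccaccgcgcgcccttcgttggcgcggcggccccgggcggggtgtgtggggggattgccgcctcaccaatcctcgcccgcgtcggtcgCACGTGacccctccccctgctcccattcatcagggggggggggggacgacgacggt

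The Zic1 match starts 98 bases before the RefSeq start. In Cbln3 the capitals mark 1 CANNTG match, and the windows of Gabra6 and Gdf10 hold none. Among 32851 RefSeq windows of 250 bases, 6.02% hold CACGTG and 66.2% hold CANNTG. The windows of Zic1 and Cbln3 are shorter, at 208 and 114 bases, so these shares are no direct measure for them. A match is a run of letters and no evidence of binding, and its absence says only that these letters are not in this window. An entry was found for 7 of the 8 genes, all but Cbln1.

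Gabra6 encodes the α6 subunit of the GABA-A receptor, which in the brain is largely made by granule neurons, and lies in GRCm38 at chr11:42306437-42321072 on the minus strand. It had 8.19, 27.4 and 2.69 CPM in WT astrocytes (animals 201, 202 and 265) and 19.5, 3.70, 5.20, 26.5 and 8.52 CPM in aKO astrocytes (animals 203, 205, 208, 221 and 222). Flowthrough libraries gave 0.112 and 2.09 CPM in WT 201 and 202 and 0.446 CPM in aKO 203. Flowthrough of aKO 205 held 0 counts, which allows up to 0.0909 CPM. Every astrocyte library lay above every flowthrough library, and the highest level in astrocytes was 10.2 times the lowest. The estimate of astrocytes over flowthrough was a log2 fold change of 4.49 (SE 1.04), given without a test, and it ran from 3.77 to 7.66 when single libraries were left out.

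Cbln1 encodes cerebellin 1, and its gene is at chr8:87468854-87472592, minus strand. Astrocyte levels were 5.49, 23.5 and 7.47 CPM in WT 201, 202 and 265, and 15.5, 6.51, 6.78, 15.8 and 13.4 CPM in aKO 203, 205, 208, 221 and 222. Flowthrough levels were 0.0899 and 4.55 CPM in WT 201 and 202 and 1.73 and 0.182 CPM in aKO 203 and 205. The fractions did not overlap, although WT 202 flowthrough came close to the lowest astrocyte library. Cbln1 rose in astrocytes by a log2 fold change of 2.88 (SE 0.83; edgeR adjusted p = 0.0266). Without WT astrocyte library 202 the estimate was 2.36 (edgeR adjusted p = 0.0589), without aKO flowthrough 205 it was 2.48 (edgeR adjusted p = 0.110), and without WT flowthrough 202 it was 5.10 (edgeR adjusted p = 0.000814).

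Cbln3, a cerebellin that granule neurons secrete in complexes with cerebellin 1, is at chr14:55878920-55884256, minus strand. It had 5.12, 21 and 2.45 CPM in astrocytes of WT 201, 202 and 265 and 15.4, 5.60, 6.23, 15.9 and 7.52 CPM in those of aKO 203, 205, 208, 221 and 222. Flowthrough gave 2.38 CPM in WT 202, 0.594 CPM in aKO 203 and 0.212 CPM in aKO 205, and 2 counts (0.0450 CPM) in WT 201. The lowest astrocyte library, WT 265, was just above the highest flowthrough library. The rise in astrocytes was 3.66 on the log2 scale (SE 0.84; edgeR adjusted p = 0.00687). Without aKO flowthrough 205 it was 3.43 (edgeR adjusted p = 0.0606), and without WT flowthrough 202 it was 5.89 (edgeR adjusted p = 0.000417).

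Neurod1 encodes a basic helix-loop-helix factor of granule neurons that is also known from forebrain neurons and the pineal gland, at chr2:79452521-79456751, minus strand. Its levels in astrocytes were 21.4, 55.2 and 8.88 CPM in WT 201, 202 and 265 and 32.7, 12.0, 14.3, 34.8 and 30.0 CPM in aKO 203, 205, 208, 221 and 222. Flowthrough held 0.382 and 6.22 CPM in WT 201 and 202 and 1.37 and 0.394 CPM in aKO 203 and 205. The fractions did not overlap, and Neurod1 rose by 3.82 on the log2 scale (SE 0.75; edgeR adjusted p = 0.00233), a call that held in all 21 alternatives. Pineal markers rose in the same contrast, 4 of the 6 tested against 8.52% of all genes, with a median of 4.27. The summed CPM of 9 pineal markers was 366.6 in aKO 222 astrocytes, 78.5 in WT 201 and 6.42 to 47.7 in the other astrocyte libraries. In flowthrough it was 4.18 to 6.61. The ratio of Neurod1 to Cbln3 was 3.99 in aKO 222, 4.17 in WT 201 and 3.62 in WT 265, where the pineal sum was 14.7 CPM. It was 2.12 to 2.63 in the remaining astrocyte libraries. The part of pineal RNA in the Neurod1 level was not tested. Neurod1 shares 201 exon bases with Cerkl on the same strand (0.924 to 4.48 CPM in astrocytes) and 154 with the antisense gene Gm26755 (at most 0.174 CPM).

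Zic1, a zinc finger transcription factor of granule neurons that is also known from the meninges, is at chr9:91358058-91365810, minus strand. It had 22.9, 39.1 and 24.8 CPM in WT astrocytes 201, 202 and 265 and 47.1, 41.7, 30.8, 30.3 and 25.7 CPM in aKO astrocytes 203, 205, 208, 221 and 222. Flowthrough levels stayed at 12.5 and 13.2 CPM in WT 201 and 202 and 17.5 and 13.4 CPM in aKO 203 and 205. It was the most even of the 8 genes in flowthrough, where its highest level was 1.4 times its lowest, and the fractions did not overlap. The rise in astrocytes was 0.95 (SE 0.29; edgeR adjusted p = 0.0336). Leaving out WT astrocyte library 202, aKO astrocyte library 203 or any of the 4 flowthrough libraries ended this call, with estimates of 0.76 to 1.0 and edgeR adjusted p from 0.0620 to 0.125. Of 6 meningeal fibroblast markers, Col1a1 and Lum rose too, and their list summed to 39.9 to 156.7 CPM in astrocytes and 27.5 to 55.1 CPM in flowthrough. Their part in the Zic1 level was not tested. Zic1 shares 60 exon bases with Zic4 on the opposite strand, which had 12.7 to 29.6 CPM in astrocytes and 7.09 to 15.8 CPM in flowthrough.

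Fat2 encodes an atypical cadherin found on parallel fibres, at chr11:55250609-55336564, minus strand. Its levels were low, with 1.61, 6.27 and 2.53 CPM in astrocytes of WT 201, 202 and 265 and 3.99, 1.19, 2.27, 4.92 and 4.57 CPM in those of aKO 203, 205, 208, 221 and 222. Flowthrough had 0.697 and 1.10 CPM in WT 201 and 202 and 2.13 and 0.848 CPM in aKO 203 and 205. Of the 8 astrocyte libraries, 6 lay above all flowthrough libraries. The estimate of 1.42 (SE 0.55) did not pass (edgeR adjusted p = 0.0860). It passed without aKO astrocyte library 205, at 1.55 (edgeR adjusted p = 0.0484).

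Pcp2, also called L7, encodes a G protein modulator of Purkinje neurons, at chr8:3623371-3625545, minus strand. Astrocyte libraries held 29.4, 299.8 and 144.5 CPM in WT 201, 202 and 265 and 155.9, 56.8, 125.1, 245.0 and 158.0 CPM in aKO 203, 205, 208, 221 and 222. Flowthrough held 6.74 and 77.1 CPM in WT 201 and 202 and 43.8 and 13.8 CPM in aKO 203 and 205. The ranges overlapped, with 6 of 8 astrocyte libraries above all flowthrough. The estimate was 2.04 (SE 0.71; edgeR adjusted p = 0.0577) and did not pass. It was 2.29 (edgeR adjusted p = 0.0253) without WT astrocyte library 201 and 3.26 (edgeR adjusted p = 0.00934) without WT flowthrough 202. With the animal as a block over the 8 libraries of animals that gave both fractions, it was 1.65 and passed (edgeR adjusted p = 0.00426). Of the 1828 exon bases of Pcp2, 861 are shared with Pet100 on the opposite strand, which had 36.6 to 93.5 CPM in astrocytes and 50.9 to 162.3 CPM in flowthrough. How the counting treated strand was not stated, so reads of Pcp2 and Pet100 may be mixed.

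Gdf10, a secreted TGF-β family ligand that marks Bergmann glia in the adult cerebellum, is at chr14:33923587-33935280, plus strand. It had 17.3, 17.8 and 22.1 CPM in WT astrocytes 201, 202 and 265 and 18.6, 28.8, 41.4, 45.7 and 22.1 CPM in aKO astrocytes 203, 205, 208, 221 and 222. Flowthrough had 0.854 and 1.80 CPM in WT 201 and 202 and 1.15 and 1.30 CPM in aKO 203 and 205. No flowthrough library came near the astrocyte range, and the levels in astrocytes spanned a factor of 2.65, less than those of 6 other members and more than that of Zic1. The estimate for the fraction was 4.03 (SE 0.39), given without a test.

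**Figure D1:**
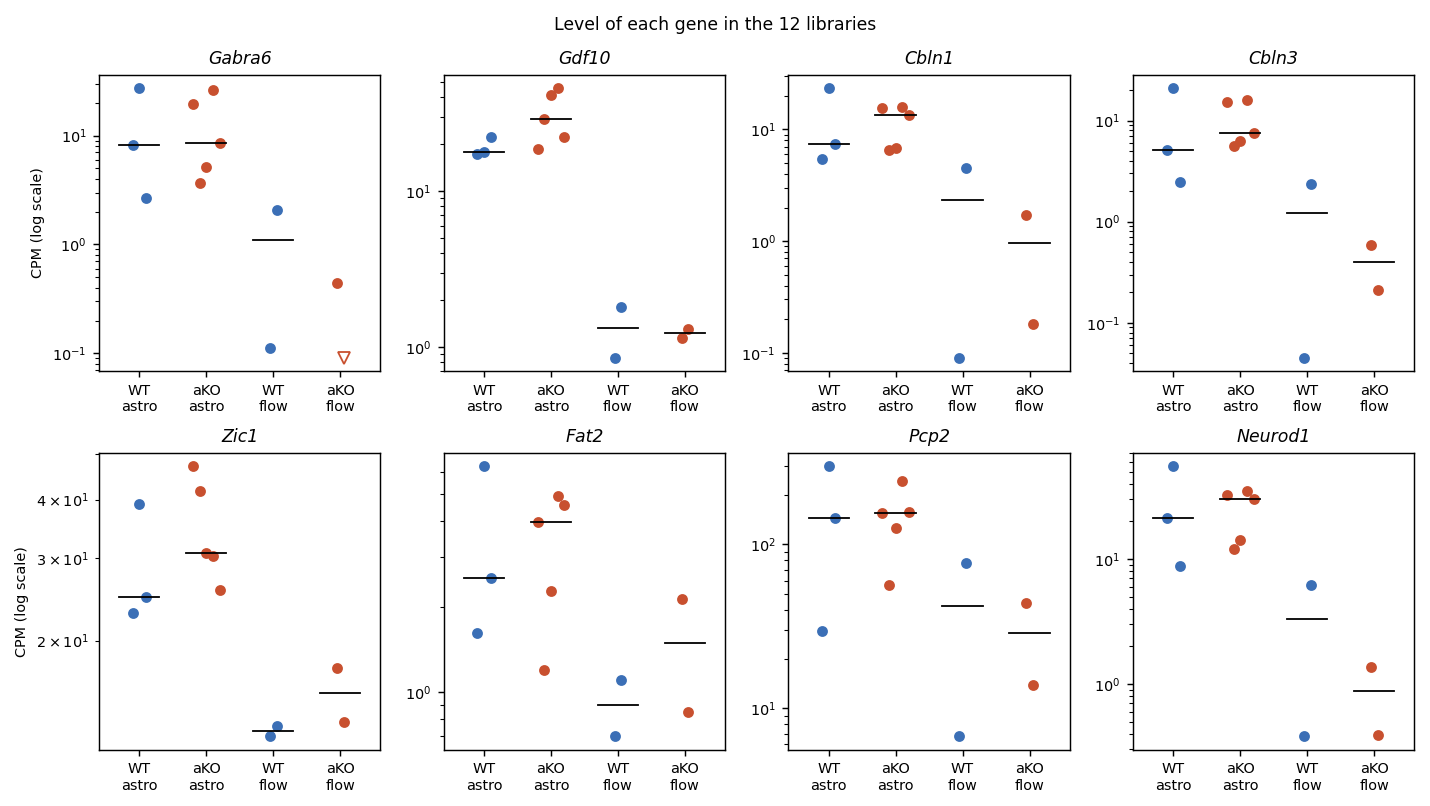
Level of each of the 8 genes in CPM on a log axis, with 1 point per library in the 4 groups of fraction and genotype (blue WT, red aKO) and a line at each group median where no library was at 0. An open triangle marks the floor of 3 counts for Gabra6 in the flowthrough library with 0 counts. Every astrocyte library lay above every flowthrough library for Cbln1, Cbln3, Zic1 and Neurod1, against 6.34% of all genes tested. The same held for Gabra6 and Gdf10, but they were chosen on this rise, and all 8 genes were listed with earlier results known. Single libraries overlapped for Fat2 and Pcp2.

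Across the 6 genes not picked on this contrast, 4 rose in astrocytes (Cbln1, Cbln3, Neurod1 and Zic1) and none fell. All 8 genes were listed with earlier results of these data known. Cbln3 and Neurod1 also varied with Gabra6, which was picked on this rise (r = 0.95 and 0.94 over the 8 astrocyte libraries). These counts are therefore a description and no independent support for the rise. Over all 20637 genes tested, 17.0% changed in this comparison and 8.52% were higher in astrocytes. Every astrocyte library was above every flowthrough library for Cbln1, Cbln3, Zic1 and Neurod1 among these 6, against 6.34% of all genes. In bulk RNA, fewer cells of a type and less RNA per cell cannot be told apart. Scaling to library totals in place of TMM factors moved the median of all genes from 0.07 to 0.34 and the split of calls from 1758 higher and 1759 lower to 2288 higher and 1323 lower, and all 6 genes then passed. Without aKO flowthrough 205, 1 of the 6 passed (Neurod1), and without WT astrocyte library 202, 2 did.

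The 4 animals that gave both fractions showed the direction of every gene within 1 brain. Gabra6 was 72.9 times higher in astrocytes than in flowthrough in WT 201, 13.1 times in WT 202, 43.8 times in aKO 203 and at least 40.7 times in aKO 205, where the bound is set against 3 counts. Gdf10 was 20.2, 9.85, 16.1 and 22.1 times higher in the same order of animals. Cbln1 was 61.1, 5.17, 9.0 and 35.8 times higher, and Neurod1 55.9, 8.88, 23.8 and 30.5 times. WT 202 gave the smallest ratio for each of these 4 genes, and its flowthrough held the highest neuronal content of the flowthrough libraries, with 813.3 CPM summed over 10 markers of all neurons against 83.6 to 331.3 CPM. Whether this sets the ratios was not tested. Cbln3 was 8.82, 25.9 and 26.4 times higher in WT 202, aKO 203 and aKO 205, with too few counts in WT 201 for a ratio. Pcp2 was the most even, at 4.36, 3.89, 3.56 and 4.11 times. Zic1 was 1.83, 2.97, 2.70 and 3.11 times higher and Fat2 2.31, 5.71, 1.87 and 1.41 times. The 6 genes not chosen on this contrast were higher in astrocytes in each of the 4 animals, as were 31.4% of all genes tested. Gabra6 and Gdf10 were too, but their choice used this direction. With the animal as a block, 5 of the 6 genes not chosen on this contrast passed, all but Fat2. Of all 20189 genes tested there, 5951 passed, 3206 higher and 2745 lower in astrocytes. The same 8 libraries without the block gave 2 of 6 and 3562 of 20189 genes (1549 higher and 2013 lower). The block thus added calls over the whole table and not for these genes alone.

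**Figure D2:**
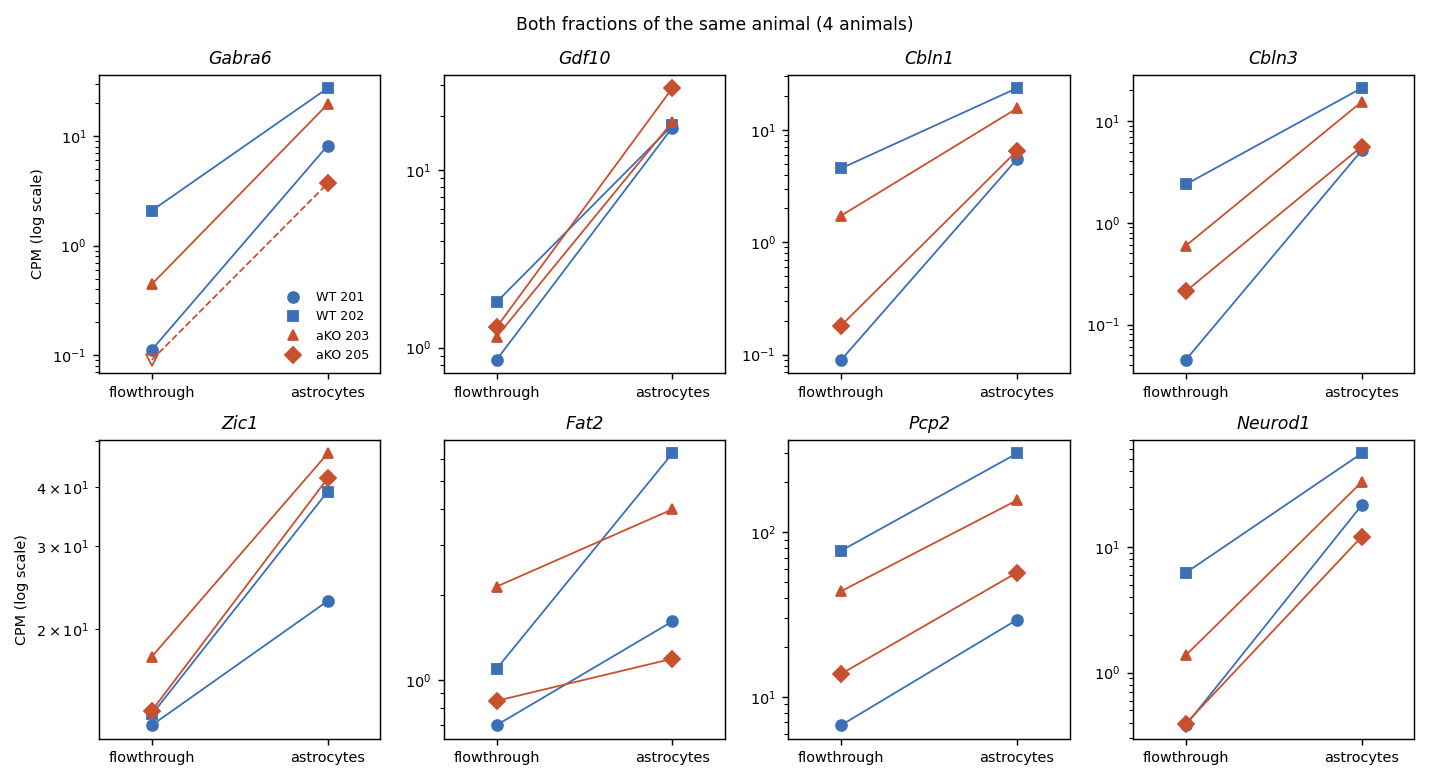
Levels in CPM on a log axis in both fractions of each of the 4 animals with both, with a line per animal (blue WT, red aKO, a symbol per animal). The dashed line for Gabra6 starts from the floor of 3 counts. Every line goes up toward astrocytes, steeply for Gabra6, Gdf10 and the cerebellins and less so for Zic1 and Fat2. The choice of Gabra6 and Gdf10 used this direction.

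Other markers of the same cell types were counted beside these genes. Over all 20637 genes tested the median log2 fold change was 0.07, and 8.52% were higher in astrocytes. Of 16 further granule neuron markers 15 could be tested, and 8 rose and 1 fell (median 1.43). Grin2c, an NMDA receptor subunit, rose by 2.96 (SE 0.52; edgeR adjusted p = 0.000948), Grm4, a glutamate receptor of parallel fibre terminals, by 2.52 (SE 0.58; edgeR adjusted p = 0.00669), and the factors Neurod2 and Pax6 by 2.34 and 1.43. Cadps2, which acts in release of dense-core vesicles, fell by 1.48 (edgeR adjusted p = 0.0263). Of 19 Purkinje markers 18 could be tested, 8 rose and none fell (median 1.77), among them Car8, a carbonic anhydrase-related protein that binds the IP3 receptor (3.23, SE 0.73; edgeR adjusted p = 0.00663), and Dner, a transmembrane Notch ligand (2.10, SE 0.41; edgeR adjusted p = 0.00201). Of 13 Bergmann and astroglial markers 10 rose (median 2.5), led by Ptprz1, Etv4, Gria4 and Dao at 3.16, 3.22, 3.56 and 2.92. Several of these genes are also made by other astrocytes. Of 9 tested cerebellar interneuron markers 3 rose and Prkcd fell (median 1.27). Granule markers summed to 196.5 to 308.0 CPM in astrocytes and 135.2 to 271.0 CPM in flowthrough. For Purkinje markers the sums were 305.4 to 1004 against 142.0 to 325.2 CPM, and for Bergmann markers 1157 to 5854 against 231.4 to 1388 CPM. Interneuron markers summed to 29.7 to 66.1 against 44.6 to 83.1 CPM, with a lower mean in astrocytes (42.9 against 59.0 CPM). The ranges of the fractions overlapped in each list.

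The partners of the cerebellins were read as their own list, which holds paralogs, related C1q-like ligands and receptors. Of these 10 genes 6 rose and none fell (median 1.94), where 8.52% of all genes were higher in astrocytes. Grid1, a delta-type glutamate receptor, rose by 2.35 (SE 0.58; edgeR adjusted p = 0.0105), and Nrxn3, a presynaptic adhesion protein, by 1.95 (SE 0.46; edgeR adjusted p = 0.00733). The paralogs Cbln2 and Cbln4 had estimates of 1.94 (SE 0.94) and 1.93 (SE 0.78) and did not pass.

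Of 10 markers of all neurons 5 rose and none fell, with a median of 1.94, where 8.52% of all genes were higher in astrocytes. Of 13 forebrain neuron markers 3 rose, among them Neurod6 and Bcl11b, and none fell, with a median of 1.49. Tbr1, Emx1, Ppp1r1b and Rgs9 of that list had estimates below 0, at -0.33, -0.60, -0.98 and -0.52, and did not pass. The summed level of the 10 general neuronal markers was 533.8 to 2122 CPM in astrocyte libraries and 83.6 to 813.3 CPM in flowthrough, with no marker at 0 in any library. Forebrain markers summed to 258.6 to 487.7 CPM in astrocytes and 156.9 to 381.9 CPM in flowthrough.

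Each cerebellar gene was therefore also set against the neuronal content of its library, as CPM per 1000 summed CPM of the general neuronal markers. On this ratio Gabra6 was 5.04 to 12.9 in astrocytes and 0 to 2.57 in flowthrough, so the fractions stayed apart. Gabra6 was chosen on its rise between these fractions. Cbln1 had 7.29 to 14.0 against 1.08 to 5.59, Cbln3 4.59 to 9.89 against 0.538 to 2.93, and Neurod1 15.4 to 32.7 against 4.15 to 7.65. These granule genes also kept apart, but the share of all genes that do so on this ratio was not determined. The Purkinje gene Pcp2 overlapped, at 44.9 to 270.6 (median 126.4) in astrocytes and 80.7 to 164.6 (median 113.5) in flowthrough. The glial gene Gdf10 overlapped as well, at 8.37 to 44.5 against 2.22 to 15.5. For Zic1 and Fat2 the direction of the medians turned. Zic1 had 14.6 to 57.9 (median 29.3) in astrocytes against 16.2 to 159.9 (median 101.1) in flowthrough, and Fat2 1.66 to 4.74 (median 2.45) against 1.35 to 10.1 (median 7.39). Zic1, Fat2 and Pcp2 were each lower in astrocytes in animals 201, 203 and 205 and higher in animal 202. These ratios are a description without a test.

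**Figure D3:**
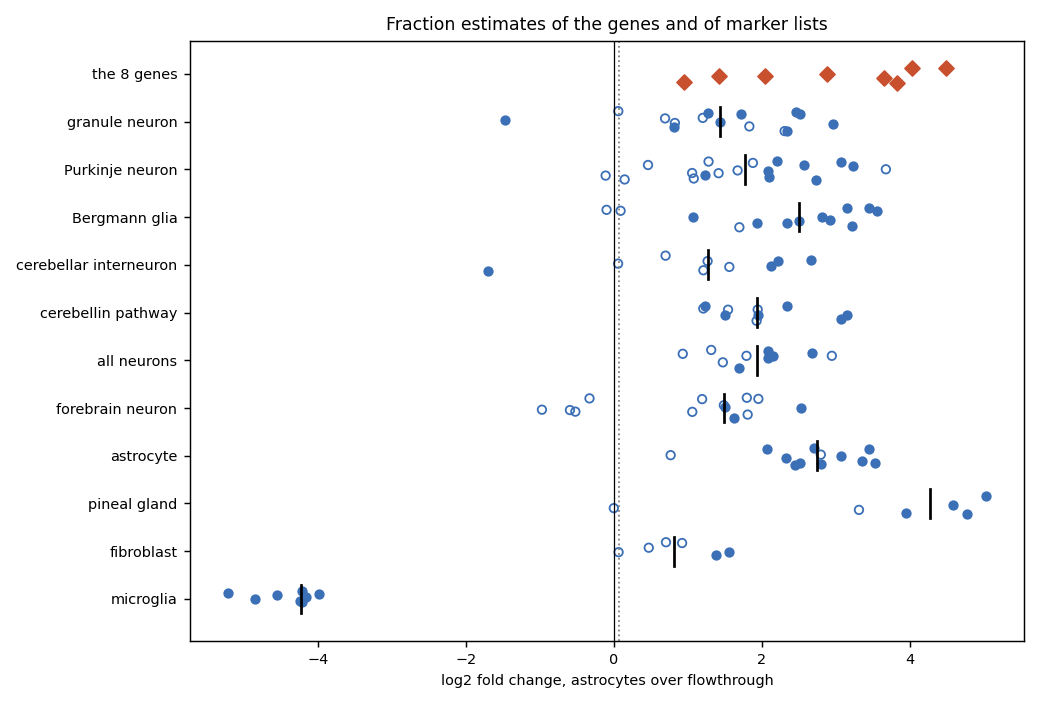
Log2 fold change of astrocytes over flowthrough for the 8 genes (red diamonds, tested or not) and for genes of 11 marker lists (blue, filled where the edgeR adjusted p was under 0.05, open where not). Black bars give list medians and the dotted line the median of all genes at 0.07. The 8 genes run from 0.95 to 4.49, the medians of the neuronal and astroglial lists lie between 1.27 and 2.75, and the microglial genes lie far to the left.

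Genes were compared by the deposited RPKM, scaled to library total and to the length of all annotated exons, which is not that of 1 transcript. That length was 4723 bases for Cbln3. Pcp2 stood highest in astrocytes with 83.0 ± 48.7 RPKM (mean ± SD, n = 8), but 861 of its 1828 exon bases are shared with Pet100. Gdf10 and Neurod1 followed with 10.7 ± 4.42 and 9.59 ± 5.61 RPKM, and then Zic1, Gabra6 and Cbln1 with 5.76 ± 1.55, 5.11 ± 4.09 and 5.06 ± 2.72 RPKM. Cbln3 had 2.10 ± 1.4 RPKM and Fat2 0.235 ± 0.123 RPKM. Gdf10 and Neurod1 differed by less than their spread over libraries, as did Zic1, Gabra6 and Cbln1, while Pcp2 at one end and Fat2 at the other did not overlap their neighbours except that the lowest Pcp2 library (16.1 RPKM) lay inside the ranges of Gdf10 (up to 18.2) and Neurod1 (up to 20.2). In flowthrough Pcp2 again stood highest at 19.4 ± 17.6 RPKM (n = 4), Zic1 was second at 2.48 ± 0.396 RPKM, and each of the others had a mean under that of Zic1.

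Genotype was compared in isolated astrocytes between the 5 libraries labelled aKO and the 3 WT libraries, the contrast on which none of the 8 genes was chosen. None of the 8 passed, with an edgeR adjusted p of 0.9997 for each, where 0.0264% of 18950 genes passed (5 genes by edgeR, 299 at an unadjusted p under 0.05, 15 by DESeq2). The estimates were small against their errors. Gabra6 differed by -0.17 (SE 0.69), Cbln1 by -0.22 (SE 0.52), Cbln3 by -0.09 (SE 0.59) and Neurod1 by -0.31 (SE 0.54). For Fat2 the difference was -0.17 (SE 0.59), for Pcp2 -0.28 (SE 0.64) and for Zic1 0.10 (SE 0.34). The groups overlapped for all 8 genes, as for all but 1.41% of genes.

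Gdf10 had the estimate farthest from 0, at 0.56 (SE 0.37; edgeR adjusted p = 0.9997). Its mean was 31.3 ± 11.9 CPM (SD, n = 5) in aKO and 19.1 ± 2.67 CPM (SD, n = 3) in WT. Of the 5 aKO libraries 3 lay above every WT library, and the other 2 lay within or near the WT range. Over 16 alternatives the estimate stayed between 0.41 and 0.81 and never passed.

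Leaving out single astrocyte libraries turned the sign of 7 of the 8 estimates. WT 202 had the highest level of Gabra6, Cbln1, Cbln3, Neurod1, Fat2 and Pcp2 of all 8 astrocyte libraries and also the highest sum of general neuronal markers, 2122 CPM. Without it the estimates were 1.24 for Gabra6, 0.76 for Cbln1, 1.4 for Cbln3, 0.76 for Neurod1, 0.65 for Fat2 and 0.59 for Pcp2. Counted as aKO, as its genotype field has it, they were 1.57, 1.05, 1.71, 1.09, 0.89 and 0.87. No member passed either way. Smaller shifts also turned signs, to 0.07 and 0.02 for Gabra6 and 0.09 and 0.04 for Cbln3 without aKO 205 or aKO 208, and to 0.09 for Fat2 without aKO 205. Zic1 turned to -0.13 without WT 201 and -0.03 without aKO 203. Gdf10 stayed above 0 with each astrocyte library left out in turn.

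In flowthrough, 0 of 8 genes differed between the 2 libraries labelled aKO and the 2 WT libraries by edgeR, as for all 20637 genes tested (0.0% called, 817 genes at an unadjusted p under 0.05 by edgeR, 0 called by DESeq2). Estimates were -1.87 (SE 1.46) for Gabra6, -0.93 (SE 1.19) for Cbln1, -1.20 (SE 1.19) for Cbln3 and -1.55 (SE 1.03) for Neurod1. They were 1.01 (SE 0.85) for Fat2, 0.54 (SE 0.46) for Zic1, -0.22 (SE 1.04) for Pcp2 and 0.20 (SE 0.53) for Gdf10, and edgeR adjusted p ran from 0.804 to 0.964. The groups did not overlap for Zic1, as for 32.7% of all genes. Without WT flowthrough 202 the signs of Gabra6, Cbln1, Cbln3, Neurod1 and Pcp2 turned, to 1.21, 3.52, 3.27, 1.37 and 2.24. The difference between the 2 genotype effects, tested in the fit of all 12 libraries, passed for 0 of 8 genes by edgeR (adjusted p from 0.956 to 0.9999) and for 0 of 20637 over the whole table (0.0%, 499 at an unadjusted p under 0.05, 0 by DESeq2).

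**Figure D4:**
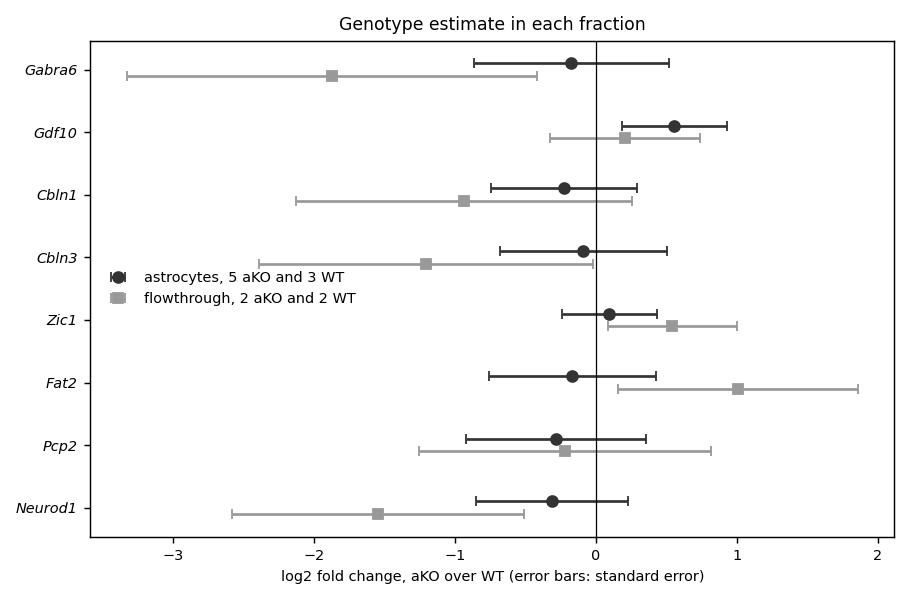
Log2 fold change of aKO over WT for the 8 genes in astrocytes (dark circles) and flowthrough (grey squares), with the standard error as bars. All astrocyte estimates except that of Gdf10 lie within 1 standard error of 0, and flowthrough estimates are more spread, with standard errors of 0.46 to 1.46.

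Because the granule genes varied several-fold between brains of the same genotype, their levels were compared pairwise over the 8 astrocyte libraries (log2 CPM, 28 pairs, exact two-sided permutation test). Gabra6 and Cbln3 varied together (Pearson r = 0.95, exact p = 0.000794, adjusted p = 0.00642; Spearman rho = 0.93, exact p = 0.00223, adjusted p = 0.0156), and r was 0.95 without the 2 libraries farthest from the median of Gabra6. Gabra6 and Neurod1 gave r = 0.94 (exact p = 0.000918, adjusted p = 0.00642; rho = 0.93, adjusted p = 0.0156), and 0.89 without the 2 farthest. Cbln1 varied most closely with Fat2 (r = 0.96, exact p = 1.98e-04, adjusted p = 0.00556; rho = 0.95, adjusted p = 0.0156; 0.95 without the 2 farthest) and with the Purkinje gene Pcp2 (r = 0.89, exact p = 0.000818, adjusted p = 0.00642; rho = 0.88, adjusted p = 0.0338; 0.83 without the 2 farthest). Fat2 and Pcp2 gave r = 0.91 (exact p = 0.00218, adjusted p = 0.0122; rho = 0.93, adjusted p = 0.0156). Of the 28 pairs, 9 passed by r and 7 by both measures after Benjamini-Hochberg adjustment. The share of all gene pairs that would pass over these 8 libraries was not determined. Gdf10 passed with no gene, with r from -0.08 to 0.46. Zic1 passed with none either, with r from -0.05 to 0.69.

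Within genotypes the values were close to these, at 0.96 for Gabra6 and Cbln3, 0.95 for Gabra6 and Neurod1 and 0.96 for Cbln1 and Fat2. Without aKO 222 and WT 265, r was 0.94, 0.97 and 0.96 for the same pairs and rose from 0.85 to 0.997 for Cbln1 and Cbln3. WT 202, aKO 203 and aKO 221 held the highest levels of Gabra6, Cbln1 and Cbln3, and also the 3 highest sums of the general neuronal markers (2122, 2067 and 2071 CPM, against 533.8 to 1011 CPM in the other 5). The part of the overall neuronal content in these correlations was not tested. Within a library, the CPM of Cbln3 over that of Gabra6 was 0.601 to 1.51, Cbln1 over Gabra6 0.599 to 2.78 and Neurod1 over Gabra6 1.31 to 3.52. Across cell types, Pcp2 over Gabra6 was 3.59 in WT 201 and 53.7 in WT 265, and Gdf10 over Gabra6 was 0.649 to 8.22.

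**Figure D5:**
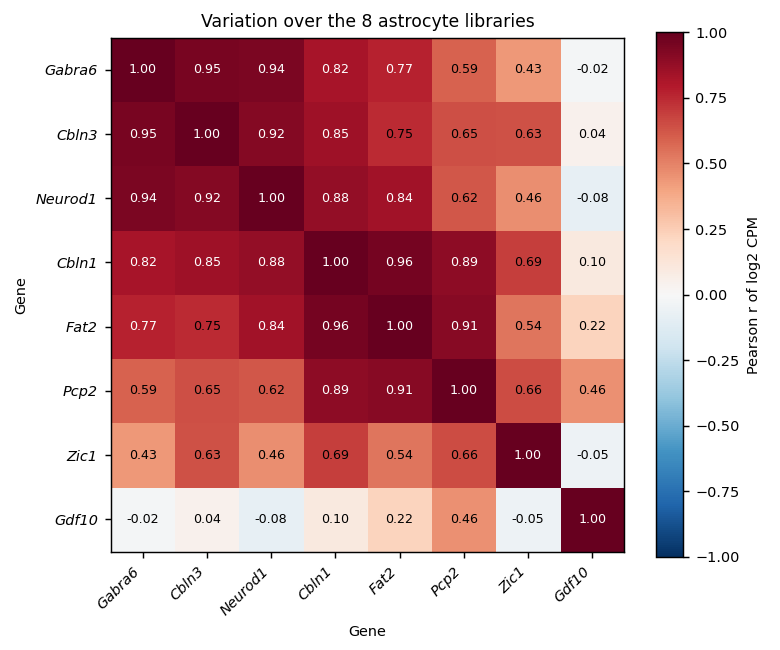
Pearson r of log2 CPM between each pair of the 8 genes over the 8 astrocyte libraries, on a colour scale from -1 (blue) to 1 (red), with r printed in each cell. The r among Gabra6, Cbln3, Neurod1, Cbln1 and Fat2 runs from 0.75 to 0.96, and Gdf10 is near 0 with most genes. The Purkinje gene Pcp2 has 0.91 with Fat2 and 0.89 with Cbln1, and 0.59 to 0.65 with Gabra6, Cbln3 and Neurod1. Zic1 has 0.43 to 0.69 with the other granule genes.

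The genes most like each member over the same 8 libraries were found among 12416 genes with an official symbol and a mean log2 CPM of at least 1. They are a description over libraries that share depth, scaling and preparation, and carry no p. For Gabra6 they were Syt4, Chn1 and Srxn1 (r = 0.98 for each), for Cbln3 Ablim3, Prkar1b and Ncald (0.98 to 0.99) and for Cbln1 Camk2a, Bsn and Rims1 (0.99 for each). Camk2a is among the forebrain neuron markers counted above, and Bsn and Rims1 encode scaffolds of the presynaptic active zone. For Pcp2 they were Lhx1os, a transcript beside the Purkinje factor Lhx1, Pvalb, the calcium buffer parvalbumin, and Uchl1 (0.98 to 0.99), and for Fat2 they were Calb1, the calcium buffer of Purkinje neurons, Stmn2 and Arpp21 (0.98 to 0.99). Neurod1 had Tmtc4, the forebrain neuron gene Neurod6 and Ppp1r7 (0.96 to 0.97). Zic1 had Tbc1d16, Tmem8b and March2 (0.96 to 0.98), and Gdf10 had Urm1, Rab33a and Rnaseh2a (0.93 to 0.95).

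Other markers of the cerebellar cell types did not pass between genotypes either. In astrocytes 0 of 15 tested granule markers, 0 of 17 Purkinje markers, 0 of 13 Bergmann and astroglial markers and 0 of 10 cerebellin partners passed by edgeR, with medians of -0.05, -0.02, 0.21 and 0.10 beside 0.02 for all genes. Over all 18950 genes tested only 0.0264% passed, so these counts do not set the lists apart from other genes. Fabp7, a fatty acid binding protein of Bergmann and other radial glia, had the estimate with the smallest p among the Bergmann markers at 2.66 (SE 0.60) and did not pass (edgeR adjusted p = 0.842). Its levels were 1130 to 2470 CPM in aKO and 199.3 to 464.5 CPM in WT astrocytes. The groups thus did not overlap, as for 1.41% of all genes tested.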

How the data were processed

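RNA of 12 libraries was measured. The deposited files give per gene the read count, and the CPM and RPKM that the authors computed from it. The genome was GRCm38 and the tools were featureCounts 1.4.6-p5, Subread, STAR 2.5.1a and bcl2fastq, per the submitters' processing notes. Strand setting, annotation release and handling of multimapping reads are not given in the sources used here. The kit amplifies total RNA (SMARTer, per the labels' protocols). The deposited CPM equals count over library total within 4.37e-10, and RPKM was used only to compare genes. Of 41388 identifiers, 40254 were named by GENCODE vM21, and the other 1134 held at most 0.116% of a library and stayed in the tests.

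The test on the deposited counts was that of edgeR 4.0.16 under R 4.3.3 (quasi-likelihood test, robust dispersion, TMM, filterByExpr with minimum count 10 and total 15), two-sided, with Benjamini-Hochberg adjustment over all genes at 0.05. The astrocyte genotype contrast used 8 libraries, and the other contrasts used 1 fit of 4 groups to all 12. A standard error (SE) is the absolute log2 fold change over the root of F. Log2 CPM for correlations had a prior count of 2. The fits were tested on simulated data. Alternatives were DESeq2 1.42.0 and its size factors, voom in limma 3.58.1, no filter, each library left out, library 202 as aKO, libraries 222 and 265 left out, all libraries in 1 fit, an animal block, a prior count of 0.5 and, chosen after seeing the data, library totals.

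Titles carry a number, taken as the animal, so both fractions of a number come from 1 brain. Their deviations from group means correlated with r of 0.0823, 0.424, 0.166 and 0.404 for animals 201, 202, 203 and 205. Between different animals r ran from -0.424 to 0.312, and astrocytes of 203 correlated more with flowthrough of 202 (0.312) than with their own. Each flowthrough group holds a pair of libraries, whose deviations mirror each other. The members, gene lists and tests were chosen with earlier results of these data known. Named were all 8 members, up to 4 genes of smallest p in a list described, and the 3 genes closest to each member. Cbln2, Cbln4, Cadps2, Prkcd and Fabp7 were also looked at with their values known. Some genes that this rule names are not reported here.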

Additional observations from a re-analysis of the deposited data

Results flagged for a closer look

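Among the 5 aKO astrocyte libraries, none of the 8 genes had a library flagged as far from the others. Groups of fewer than 4 libraries were not tested for this. The test for a single outlying library was made in the group of 5 aKO astrocyte libraries, for 28 quantities, and chance flags about 1 in 20 of them. It found 3, all of them sums over markers of other cell types. The summed CPM of 9 pineal markers was 366.6 in aKO 222, against 6.42 to 47.2 in the other 4 libraries. In the same library the mural cell markers summed to 1590 CPM, against 652.3 to 883.0 CPM. The leukocyte markers summed to 248.4 CPM in aKO 208, against 67.6 to 105.5 CPM. In aKO 222 the pineal genes Tph1, Sag and Crx had 100.8, 198.6 and 16.1 CPM, beside 30.0 CPM of Neurod1 and 7.52 CPM of Cbln3.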

How the results depend on the processing

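Several flowthrough values rest on few counts, although these libraries held 33019572 to 53868165 counts, inside the range of the astrocyte libraries (21816637 to 62655238). Over 21 alternatives of the fraction contrast, Neurod1 passed in 21, Cbln3 in 20, Cbln1 in 18, Zic1 in 12, Pcp2 in 7 and Fat2 in 4, and no estimate changed sign. The cause was not tested for any change below. The number of genes called in the fraction contrast was 5951 with the replicate block by animal and ran from 1691 to 4107 with single libraries left out, and members passing ran from 1 to 5 and were 2 over the same 8 libraries without the block. Against these 8 libraries without the block, the block added the calls of Cbln1, Zic1 and Pcp2. Against the fit of all 12 libraries it added that of Pcp2, with the set of libraries changed as well.

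In astrocytes, 5 genes passed between genotypes, and 8 without the count filter, 15 with DESeq2, 0 with library 202 as aKO, 3 without libraries 222 and 265, 1 in the fit of all 12 libraries and 0 to 5 with single libraries left out. The sign of member estimates turned with voom to 0.23 for Gabra6, 0.23 for Cbln1, 0.54 for Cbln3, 0.25 for Fat2 and 0.50 for Pcp2, with library 202 as aKO to 1.57, 1.05, 1.71, 0.89 and 0.87, with 1.09 for Neurod1, and with library totals to 0.0879 for Cbln3. With single libraries left out, estimates ran from -0.64 to 1.24 for Gabra6, -0.63 to 0.76 for Cbln1, -0.53 to 1.4 for Cbln3, -0.13 to 0.44 for Zic1, -0.56 to 0.65 for Fat2, -0.78 to 0.59 for Pcp2 and -0.72 to 0.76 for Neurod1.

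In flowthrough, 45 genes passed without the filter and 0 to 1 with single libraries left out. Signs turned to -0.11 for Gdf10 with library totals and, with voom, to 0.20, 0.36 and 0.31 for Cbln1, Cbln3 and Pcp2. Without single libraries, estimates ran from -8.29 to 1.21 for Gabra6, -0.24 to 0.71 for Gdf10, -3.23 to 3.52 for Cbln1, -2.25 to 3.27 for Cbln3, -1.19 to 2.24 for Pcp2 and -2.64 to 1.37 for Neurod1.

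For the difference of genotype effects, 40 genes passed without the filter, 1 with the replicate block, 1 without it over the same 8 libraries and 0 with single libraries left out. With the block, signs turned to -0.0814 for Gdf10, -0.26 for Cbln1, -0.17 for Cbln3 and -0.12 for Neurod1, and without it to -0.0297 for Gdf10. Voom gave -0.11 for Cbln1 and 0.0847 for Pcp2, no filter 0.0414 for Pcp2, library 202 as aKO 0.0192 for Zic1 and 1.19 for Pcp2, and library totals 0.0122 for Zic1 and 0.45 for Pcp2. Without single libraries, estimates ran from -1.41 to 8.09 for Gabra6, -0.13 to 0.83 for Gdf10, -3.76 to 3.00 for Cbln1, -3.38 to 2.62 for Cbln3, -2.51 to 0.93 for Pcp2 and -1.71 to 2.31 for Neurod1. Between Gabra6 and Gdf10, r was 0.00603 without libraries 222 and 265 and -0.02 over all 8.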
